A study of Mus musculus with 10 samples.

Results

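The H3K4me3 landscape of neuronal nuclei from hippocampal area CA1 of control mice was described from 4 peak lists, 1 per library. The 4 libraries were taken by their titles as littermate controls, out of 8 H3K4me3 libraries and 10 samples in the series. Per the labels, the mice were wildtype littermates of CaMKIIδC transgenic animals, male, and 3 months old. They had drunk water with the vehicle of the drug vorinostat for 4 weeks from the age of 2 months, so no control here is free of that vehicle. Nuclei from frozen CA1 tissue were sorted for NeuN, a protein of neuronal nuclei. For each immunoprecipitation 0.2 µg of their chromatin and 1 µg of antibody were used, and single ends of 50 bp were read. No label states whether each library stands for its own animal, and the spread between them may be technical. All results concern the 19 autosomes and the 20661 protein-coding genes annotated there. With a single group there was no comparison between conditions, and every value is a description with its spread over 4 libraries.

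H3K4me3, histone H3 trimethylated at lysine 4, sits on nucleosomes around the start of genes that are transcribed or held ready for transcription. It is written by complexes of the SET1 and MLL (Kmt2) methyltransferases and removed by the KDM5 demethylases. Unmethylated CpG-rich DNA recruits these writers through CXXC-domain proteins. In many cell types, wide stretches of the mark lie over genes of cell identity, and CpG-poor promoters of tissue-restricted genes carry it only where those genes are used.

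A promoter was taken as the window of 2 kb to each side of a gene's better covered end. It was called broad where peaks covered at least 3000 bp on average in a promoter marked in all 4 libraries, narrow where they covered under 1000 bp, and unmarked where no library had a peak in it. The DNA before the start of 4 genes shows what stood out among these classes. Each line gives the 250 bases before an annotated start (RefSeq, GRCm38.p6), 5′ to 3′ on the gene's strand, with every CG in capitals. Nr2f1, a nuclear receptor gene of cortical patterning, was among the genes with the widest peaks (chr13:78198874-78199123, minus strand, 22 CG). Neurod6, a transcription factor gene of excitatory neurons, was broad with few CG (chr6:55681264-55681513, minus strand, 3 CG). Nkx6-1, a developmental homeobox gene, was unmarked with many CG (chr5:101664712-101664961, minus strand, 30 CG). Alb, the albumin gene of liver, was unmarked with few CG (chr5:90460620-90460869, plus strand, 2 CG). Neurod6 and Nkx6-1 were picked for display after their values were seen.
Nr2f1: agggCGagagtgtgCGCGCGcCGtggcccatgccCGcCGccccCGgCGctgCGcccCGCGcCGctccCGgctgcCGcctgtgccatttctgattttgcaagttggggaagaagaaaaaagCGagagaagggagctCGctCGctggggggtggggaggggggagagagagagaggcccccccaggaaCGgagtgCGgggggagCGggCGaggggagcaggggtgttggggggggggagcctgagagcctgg
Neurod6: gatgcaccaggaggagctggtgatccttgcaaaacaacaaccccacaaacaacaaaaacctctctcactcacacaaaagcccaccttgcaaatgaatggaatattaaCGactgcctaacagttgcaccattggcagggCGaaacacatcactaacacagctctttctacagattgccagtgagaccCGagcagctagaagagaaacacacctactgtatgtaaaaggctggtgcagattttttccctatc
Nkx6-1: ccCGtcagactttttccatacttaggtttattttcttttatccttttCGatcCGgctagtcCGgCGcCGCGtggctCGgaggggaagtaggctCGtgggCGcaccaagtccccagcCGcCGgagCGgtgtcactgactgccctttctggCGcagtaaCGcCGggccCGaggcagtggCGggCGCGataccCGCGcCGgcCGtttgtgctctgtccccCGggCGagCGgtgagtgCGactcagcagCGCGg
Alb: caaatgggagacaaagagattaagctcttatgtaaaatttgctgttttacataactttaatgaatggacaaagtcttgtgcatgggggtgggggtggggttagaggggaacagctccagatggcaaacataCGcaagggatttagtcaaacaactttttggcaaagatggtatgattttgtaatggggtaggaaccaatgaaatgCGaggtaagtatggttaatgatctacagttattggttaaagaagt

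The 4 lists held 51903, 65600, 66811 and 54597 peaks in replicates 1 to 4, and most of that difference lay on the sex chromosomes. Replicates 2 and 3 had 13559 and 13023 peaks on X and 4 and 7 on Y. Replicates 1 and 4 had 1145 and 1207 peaks on X and 1024 and 1072 on Y. A peak lay over Xist, the RNA gene of X inactivation, only in replicates 2 and 3, where 2960 and 2646 bp of it were covered. Peaks at the Y genes Kdm5d, Ddx3y, Uty and Eif2s3y were found only in replicates 1 and 4. The libraries labelled control replicates 2 and 3 thus went against their label of male sex. On the autosomes the lists were closer, with 49734 to 53781 peaks (51968 ± 1674, SD, n = 4) over 36.2 to 41.6 Mb. Counts without replicates 2 and 3 are therefore given beside the main ones. Read numbers are not part of the lists, and peak number and width are known to grow with sequencing depth.

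Of the 20661 coding promoters, 13361 (64.7%) were marked in all 4 libraries, 5839 (28.3%) in none and 1461 (7.07%) in 1 to 3. Broad promoters numbered 510 (2.47%), intermediate ones 10616 (51.4%) and narrow ones 2235 (10.8%). Without replicates 2 and 3 the counts were 13691 marked in both remaining libraries, 6119 unmarked, 851 marked in 1 of them, 550 broad and 2464 narrow. Without replicates 1 and 4 they were 13594, 6310, 757, 494 and 2558. Single libraries marked 13922, 13909, 14007 and 14286 promoters in replicates 1 to 4. Replicate 4, with the most covered length, had 737 broad promoters of its own, where the other libraries had 474, 527 and 507.

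**Figure D1:**
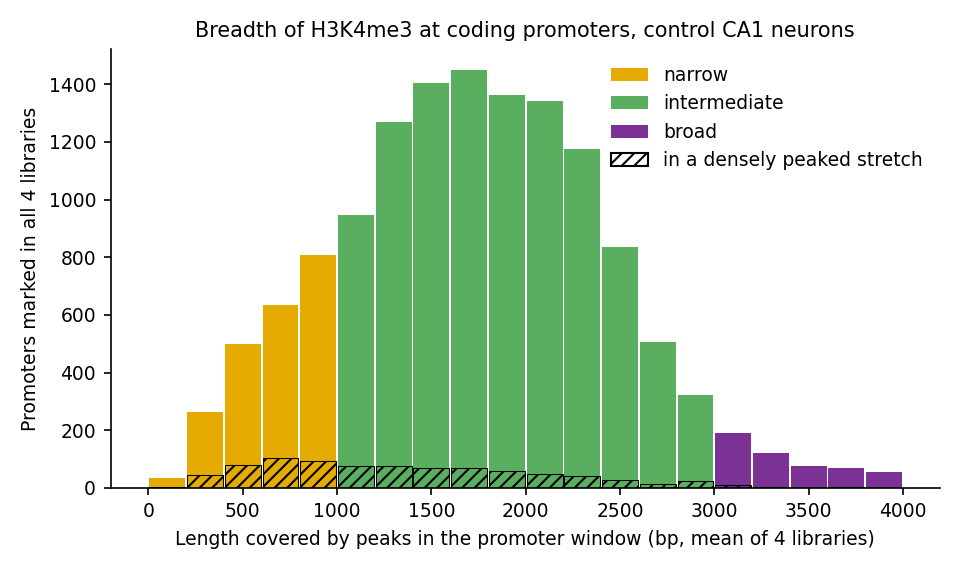
Number of coding promoters marked in all 4 libraries (y axis) by the length of the window that peaks covered, mean of the 4 libraries, in bins of 200 bp (x axis). Colours give the classes, and hatching gives the promoters in densely peaked stretches of the genome. The numbers form 1 hump, highest at 1449 promoters in the bin from 1600 bp, with no gap at either class limit.

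Breadth ran in 1 continuous distribution, as the histogram of covered length shows, so the classes are ranges and not separate populations. Of all promoters marked in all 4 libraries, 241 lay within 100 bp of the limit for broad and 839 within 100 bp of the limit for narrow. The nearest values on either side were 3000 and 2997.75 bp at the upper limit, and 1000 and 999.75 bp at the lower. The median promoter covered 3306 bp in the broad, 1833 bp in the intermediate and 706 bp in the narrow class. Peaks of 355 of the 510 broad promoters ran past the window in every library, so their full width was larger than the window could show. Conversely 362 of the 2235 narrow promoters had peaks of at least 1000 bp in full, which reached into the window from outside.

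The strength of a peak is given by its fold enrichment at the summit, the authors' own value, turned into a percentile among the autosomal peaks of the same list (0 lowest, 100 highest). The percentile of the best peak in the window had a median of 92.6 in broad, 89.6 in intermediate, 68.1 in narrow promoters and 30.3 in those marked in 1 to 3 libraries. Across the 13361 promoters, covered length and percentile had a Spearman correlation of 0.55, and the same peaks give both measures. In the bins of covered length from 2000 bp upwards the median percentile stayed between 91.2 and 93.4. Within a list, width and fold of single peaks had a Spearman correlation of 0.83 ± 0.0032 (SD, n = 4).

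Several of the widest promoters belonged to transcriptional regulators of neurons. At Nr2f1 (chromosome 13, start at 78198873) the window held 3729, 3806 and 3457 bp in replicates 1 to 3 and was filled in replicate 4, and the peaks touching it measured 10178 ± 1484 bp in full (SD, n = 4). Bcl11a, a zinc finger gene of projection neurons (chromosome 11, 24076564), filled the window in all 4 libraries, with 10015 ± 500 bp in full. The difference between them was smaller than the spread over libraries. Both thus sat at or near the ceiling of the window in every library. Lmo4, a LIM-domain cofactor gene, and Zbtb18, a repressor gene of neuronal differentiation, were intermediate by window length (2783 ± 212 and 2251 ± 222 bp). Their peaks, running on outside, measured 9098 ± 742 and 8326 ± 157 bp in full.

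The others include genes of membrane proteins and of a small GTPase. Atp1b1, a subunit of the sodium pump, had 8629 ± 563 bp in full, Cacng8, an auxiliary subunit of AMPA receptors, 8220 ± 568 bp, and Pcdh7, a protocadherin, 8180 ± 625 bp. The region at Rhof, the GTPase gene, with 9201 ± 1203 bp, is shared with Setd1b, which encodes an H3K4 methyltransferase and lies next to it on chromosome 5. Sfi1, a centrosomal gene on chromosome 11, was also among the widest by its mean but did not hold across libraries. Its window held 700 bp in replicate 1 and 3869, 3933 and 3940 bp in replicates 2 to 4, and the mean percentile of its peaks was only 59.0. Among promoters marked in all 4 libraries with at least 1000 bp on average, it also had the largest range over the libraries, before the secretoglobin genes Scgb2b2 (683, 816, 2979 and 1105 bp) and Scgb1b3, the Prame-family gene Pramel15 and the zinc finger gene Sall1. Scgb1b3 had 1498, 1838, 2842 and 883 bp, Pramel15 397, 1697, 1219 and 2424 bp, and Sall1 1321, 334, 1022 and 2270 bp.

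The highest ranks of fold belonged to other promoters than the greatest widths. Kmt2a, the MLL1 methyltransferase gene, led with a mean percentile of 99.97 and was also broad, at 3617 ± 268 bp (SD, n = 4). Bin1, a membrane-curvature gene, followed at 99.95 with 2001, 1964, 1978 and 2070 bp. Dcaf8, a ubiquitin ligase adaptor gene, stood at 99.91, Phf23, a PHD finger gene, at 99.89, and Psmb2, a proteasome subunit gene, at 99.88. The covered length at Psmb2 was 1525, 1478, 1390 and 1542 bp, well inside the intermediate class. Of the 5 narrow promoters with the highest percentiles, only Coq5, an enzyme gene of ubiquinone synthesis, was narrow in full. It had 946, 947, 1014 and 1084 bp, all inside the window, at a percentile of 99.75. At Riok3, Dusp13, Map4 and Ppp1r37 a peak of 1988 to 3149 bp on average entered the window only in part. At these 4 the annotated end lay beside the peak rather than under it.

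Genes of synaptic transmission were nearly all marked, and mostly at intermediate breadth, where 64.7% of all coding genes were marked and 2.47% were broad. All 16 autosomal genes of synaptic vesicle release were marked in all 4 libraries, 3 of them broad, and 23 of 24 genes of the glutamatergic synapse, also with 3 broad. All 11 GABA receptor genes were marked, 1 of them broad, as were 18 of 20 voltage-gated ion channel genes. Medians of covered length were 2423, 2140, 2468 and 2105 bp, where the median over all coding genes, unmarked ones included, was 1173 bp. Snap25, a SNARE protein of vesicle fusion, had 3207, 3205, 3214 and 3255 bp, and its 4 libraries agreed within 50 bp. Grin2b, an NMDA receptor subunit, had 2409, 2676, 2657 and 2835 bp in the window and 7762 ± 190 bp in full. Gabra2, a GABA-A receptor subunit, had 3068 ± 70.7 bp and Gabrd, another, had the least of its list, 1586 ± 136 bp. The potassium channel gene Kcnd2 was just broad on average, with 2999, 2637, 3118 and 3394 bp.

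Immediate early genes, which neuronal activity switches on quickly, had many broad promoters. All 22 were marked in all 4 libraries and 8 were broad (36.4%, against 2.47% of all coding genes). Dusp6, a phosphatase of the ERK pathway, filled the window in every library. Fos, the AP-1 transcription factor gene, had 3345, 3691, 3814 and 3996 bp. Arc, a regulator of AMPA receptor trafficking, had 2964, 3151, 2702 and 2704 bp, and Bdnf, a neurotrophin gene, 2398, 2850, 3261 and 2954 bp, both just under the limit for broad on average. Egr2, a zinc finger factor gene, had the least, with 948, 952, 940 and 1328 bp. Despite their breadth the list had a median percentile of 87.9, close to the 86.6 of all coding genes with a peak in any library. The list was drawn up with earlier results of these data known, so its share is a description.

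Of neuronal transcription factors 17 of 20 were marked and 7 were broad, where over all coding genes 64.7% were marked and 2.47% broad. Enzymes that write and erase H3K4 methylation were marked at 15 of 17 genes, 5 of them broad. Setd1b had 3894 and 3926 bp in replicates 1 and 3 and filled the window in the other two. Of CaM kinase and calmodulin genes 11 of 13 were marked and 0 were broad. Camk2a, the main forebrain CaM kinase II, had 2397, 2929, 2440 and 2574 bp in the window and 5931 ± 590 bp in full. Camk2d, the endogenous gene of the kinase that the transgenic littermates overexpress, had 1498, 1322, 1500 and 1446 bp in these wildtype mice, with 2924 ± 236 bp in full. Calm2, a calmodulin gene, had the most of its list, 2749 ± 145 bp. Of 12 histone deacetylase genes 9 were marked, Hdac3 widest at 2694 ± 237 bp, and 0 were broad. The share of broad promoters over all coding genes, 2.47%, is itself close to 0 genes in lists of this size.

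Several neuronal genes counted as unmarked carried the mark at another start inside the gene. Of the 4616 unmarked genes with starts in the RefSeq table, 372 (8.06%) had another annotated start marked in all 4 libraries. Shank3, a postsynaptic scaffold, had no peak at either gene end but 2348, 2199, 2303 and 2873 bp around a start at 89499608 on chromosome 15. The inwardly rectifying potassium channel gene Kcnj3 had 2497, 2510, 2495 and 2710 bp around a start at 55435970 on chromosome 2. Hdac9, a class IIa deacetylase gene, had 2315, 2315, 2323 and 2123 bp around a start at 34528889 on chromosome 12, and Dpy30, a core subunit of the H3K4 methyltransferases, 1386, 1529, 1646 and 1846 bp at 74316211 on chromosome 17. Cacna1c, Mef2a, Mef2c, Hdac4 and Hdac7, named after their values were seen, did likewise, with 2005 to 2680.5 bp on average. These values lie in the range of the intermediate class. Camk4 and Nfia had peaks inside the gene in all 4 libraries, 3537.5 and 12596 bp on average. At Nfia there was no match to a tabled start. Camk4 lies on chromosome 18, of which the table covers no gene, so a match could not be looked for. Among all 5839 unmarked genes, 4855 (83.1%) had no peak anywhere in the gene in any library.

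Housekeeping genes were marked almost throughout, and few were broad, where 64.7% of all coding genes were marked and 2.47% were broad. Of cytosolic ribosomal protein genes 76 of 79 were marked in all 4 libraries, of mitochondrial ones 77 of 78, of proteasome subunits 35 of 38 and of respiratory chain complex I subunits 34 of 35, with 2 broad in each list. Their median covered length lay between 1594 and 1913 bp, below that of the synaptic lists, at similar percentiles (91.2 to 95.8 against 90.1 to 95.5). Rpl5, a ribosomal protein of the large subunit, had 1384, 1806, 2125 and 1894 bp, and Actb, cytoplasmic actin, 1540, 1498, 1432 and 1536 bp at a percentile of 98.2. Among the members left unmarked, named after their values were seen, Mrps23, of the mitochondrial ribosome, and the proteasome gene Psma6 had another tabled start marked in all 4 libraries, with 1687 and 1861 bp on average. Rpl39l and Psmb11 had no peak in the gene in any library. Core histone genes were marked at 61 of 67, 20 of them narrow.

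**Figure D2:**
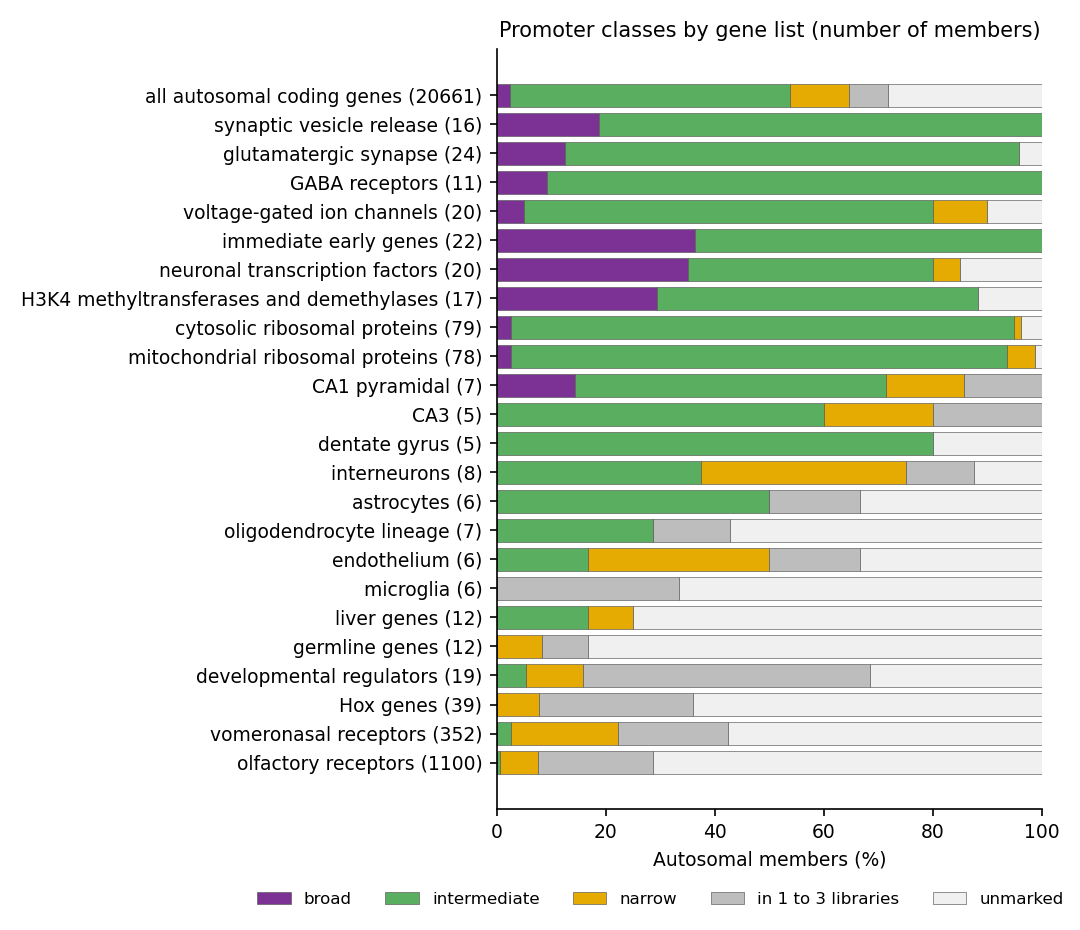
Share of autosomal members in each promoter class (x axis, %) for selected gene lists (rows, number of members in parentheses), with all autosomal coding genes in the top row. Immediate early genes have 36.4% of members in the broad class, 0 of the 6 microglial markers was marked in all 4 libraries, and olfactory receptors are 71.5% unmarked.

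General neuronal and excitatory markers were all marked, and markers of other cells were marked in part. Over all coding genes 64.7% were marked in all 4 libraries. All 5 general neuronal markers and all 3 excitatory markers were marked in all 4 libraries. Rbfox3, which encodes the NeuN protein used in the sort, held 582, 603, 689 and 603 bp in the window and 4469 ± 408 bp in full. Neurod6 had 3530, 3401, 3609 and 3524 bp. Of the CA1 pyramidal markers 6 of 7 were marked, led by the POU factor gene Pou3f1 (3734, 3457, 3460 and 3649 bp). CA3 and dentate gyrus markers were marked at 4 of 5 each, among them Grik4 (1954 ± 35.4 bp), a kainate receptor gene, and Prox1 (2852, 2245, 3065 and 2449 bp), a granule cell factor gene. These counts do not separate CA1 from the other hippocampal fields.

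Interneuron markers were marked at 6 of 8, 3 of them narrow, with a median of 584 bp. Gad1, which makes GABA, had 1418, 1394, 1885 and 1285 bp, and Vip, a neuropeptide gene, had 0 in all 4. A mark carried by few nuclei of the sample and a thin mark in many nuclei cannot be told apart in such lists. Among cells that the NeuN gate should remove, 3 of 6 astrocyte, 2 of 7 autosomal oligodendrocyte-lineage, 3 of 6 endothelial and 0 of 6 microglial markers were marked in all 4 libraries, against 64.7% of all coding genes. The 3 marked astrocyte genes were all intermediate in breadth, the glutamate transporter gene Slc1a3 with 1454 ± 195 bp and the connexin gene Gja1 with 1252.5 ± 159 bp. Members with 0 bp in every library included Gfap of astrocytes, Mog, Mag and Sox10 of oligodendrocytes, and Tmem119, P2ry12, Aif1 and Csf1r of microglia. Slc1a3, Gja1, Kdr, Mog, Mag, P2ry12, Aif1 and Csf1r are named after their values were seen. Cx3cr1, a microglial chemokine receptor gene, had 200 bp in replicate 2 only. Sox9, a factor of astrocytes and neural progenitors, had 2945 ± 119 bp, and Cldn5, an endothelial tight junction gene, 853, 759, 686 and 1078 bp. Kdr, an endothelial growth factor receptor gene, had 1302 ± 56.8 bp. Mbp, the myelin basic protein gene, which also holds the longer Golli transcripts of neurons, had 2305, 2350, 2365 and 2156 bp.

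Genes of other organs were mostly unmarked, where 28.3% of all coding genes were unmarked in all 4 libraries. In none of the 4 libraries was there a peak in the window at 10 of 12 germline genes, 9 of 12 liver genes, 8 of 12 genes of heart and skeletal muscle and 5 of 9 autosomal erythroid genes. Among them were Alb, Ttr (transthyretin), Myh6 (cardiac myosin), the globin gene Hbb-bt and Zp3 of the egg coat. The exceptions included Apoa2, an apolipoprotein gene (1451, 1971, 2025 and 2053 bp), and Ank1, an ankyrin (2067, 2099, 1991 and 2900 bp). The germline gene Dazl was marked as well (512, 645, 444 and 976 bp). Acta1, skeletal actin, had 1418 ± 190 bp, but at the gene end opposite its annotated start.

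Developmental regulators mostly had thin, irregular marks or none, a pattern that some other gene lists shared. Of 19 genes such as those of the Pax, Gata and Fox families, 10 were marked in only 1 to 3 libraries, 6 in none and 3 in all 4, with a median of 100.5 bp. Pax2 had the most (1184, 896, 879 and 1155 bp), but at the gene end opposite its annotated start. Tbx5, a limb and heart factor gene, had 0 in all 4. Of the 39 Hox genes 11 were marked in 1 to 3 libraries, 25 in none and 3 in all 4. Hoxa9 led with 807, 637, 899 and 793 bp, also at the end opposite its annotated start. Over all coding genes the share in 1 to 3 libraries was 7.07%. It was 29.6% in defensin, 21.1% in olfactory receptor and 4.76% in keratin genes. Peaks ranked low, with median percentiles of 24.7 for the regulators and 21.3 for the Hox genes. Those of defensin and olfactory receptor genes had 30.1 and 30.05.

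CpG content around the start was highest in the broad and intermediate classes and lowest in the unmarked class, in sequence that the classes did not use. For this the classes were formed again in windows around the tabled start nearest the gene's annotated one, so that sequence and window belong together. That start can lie inside the gene, as at Dlg2 and Dlgap3. The table held a start for 16456 of 20151 coding genes on the autosomes it covers (81.7%, and 79.2% to 82.7% by class), and the values describe those genes. The ratio of observed to expected CG over 300 bases, 250 before and 50 after the start, had a median of 0.80 in 476 broad and in 8519 intermediate promoters. It was 0.50 in 1466 narrow promoters, 0.25 in 1035 marked in 1 to 3 libraries and 0.18 in 4960 unmarked ones. Over all 31365 tabled promoter sequences, noncoding genes included, it was 0.39. Where the ratio was at least 0.6, 95.2% of 8197 promoters were marked in all 4 libraries, and where it was under 0.3, 15.1% of 5102 were.

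**Figure D3:**
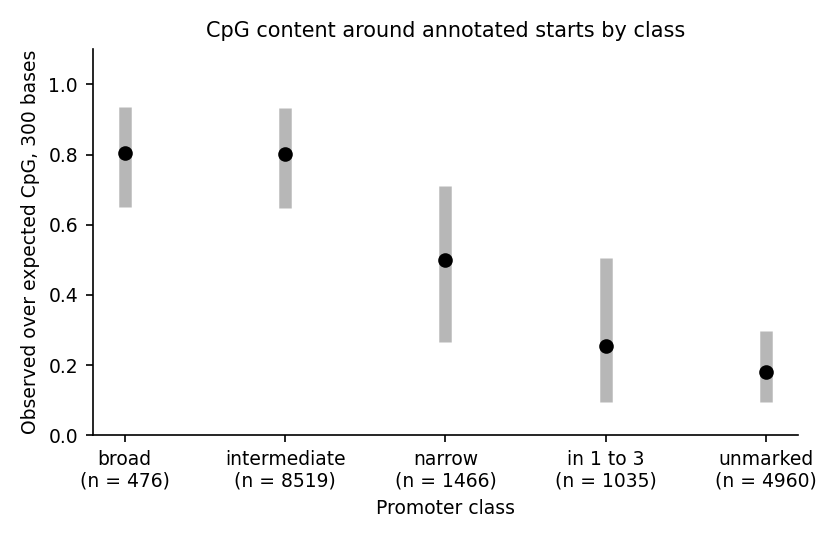
Ratio of observed to expected CG in 300 bases around tabled starts (y axis) by promoter class (x axis, number of promoters below each name). Points are medians and bars run from the lower to the upper quartile. The medians are 0.80, 0.80, 0.50, 0.25 and 0.18 from broad to unmarked.

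Among promoters marked in all 4 libraries, covered length and the CG ratio had a Spearman correlation of 0.34 over 10461 genes. The median ratio climbed from 0.32 in the bin of covered length from 200 bp to 0.82 in the bin from 1800 bp, and lay between 0.70 and 0.86 above it. The letters TATAAA, searched on both strands, occurred in 5.67% of broad, 6.34% of intermediate, 13.2% of narrow and 25.1% of unmarked promoter sequences, and in 13.6% of all tabled ones.

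The exceptions on both sides, named after their values were seen, were few. Only 20 of 5102 promoters with a CG ratio under 0.3 were broad. They include Neurod6, shown above with 3 CG, Cacng8, which encodes an auxiliary subunit of AMPA receptors, and the postsynaptic scaffold genes Dlg2 and Dlgap3. Among them is also Gng3, a neuronal G protein subunit gene that filled the window in all 4 libraries. Nphp4, Nabp2, Chst1, Fam131a, Fgf11 and Fry belong to the 20 as well. The window of Nphp4 overlaps that of the broad potassium channel gene Kcnab2. At Cacng8 the summits lay at -2745, -2052, -2783 and -2743 bp from the start in replicates 1 to 4, upstream of the window. The CG ratio of Cacng8 thus describes the DNA at its start and not under the summit. Dlg2 had 3389 ± 192 bp around its tabled start (chromosome 7, 91090786), Dlgap3 3558 ± 119 bp and Celf3, an RNA-binding protein gene of neurons, 3004 ± 79.0 bp. In the other direction 194 of 8197 promoters with a ratio of at least 0.6 were unmarked. Besides Nkx6-1, shown above with 30 CG, they include the developmental factor genes Six2, Hoxa5, Lhx1, En1, Pax5 and Gata2 and the germline genes Ddx4 and Sycp1.

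Summits of the promoter peaks lay downstream of the start. Among 9054 genes longer than the window whose better covered end was the annotated start, the summit of the best peak lay a median of 380 ± 31.2 bp into the gene (SD, n = 4). It was downstream at 83.3% ± 1.24 of them. Only 22.3% ± 2.98 had it within 250 bp of the start, and in broad and intermediate promoters the plot of summit positions shows a trough just before the start. That is where active promoters are known to be depleted of nucleosomes. Narrow promoters had their summits closer, at 267 ± 13.5 bp. Broad promoters split more evenly, with 69.3% ± 2.36 downstream and a lower quartile at -322 bp, upstream of the start. Summit positions also varied most in broad promoters, where the range over the 4 libraries had a median of 387 bp, against 134 bp in intermediate and 176 bp in narrow ones. Counted from the lower coordinate whatever the strand, the summit sat at a median of 49.9% ± 0.289 of the peak width. A median taken without strand does not show how central single summits were.

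**Figure D4:**
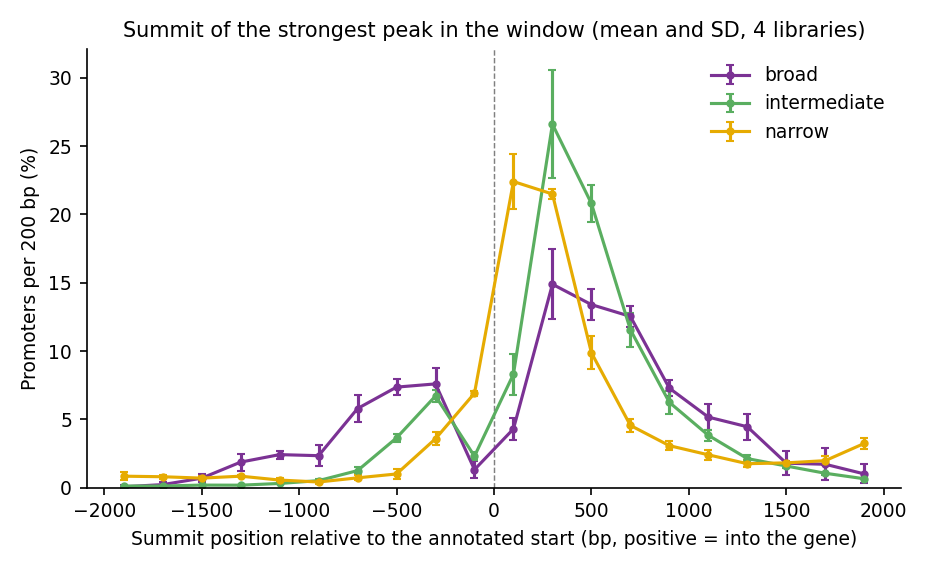
Position of the summit of the best peak relative to the annotated start (x axis, bp, positive into the gene) as the share of promoters per 200 bp (y axis), for broad, intermediate and narrow promoters. Points are means and bars the SD over 4 libraries. All classes rise just downstream of the start, and broad promoters have the largest share upstream, with 69.3% of their summits downstream.

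Choosing the better covered end picked the annotated start for most marked genes. Among 9606 genes marked in all 4 libraries and longer than the window, it was the start at 94.3%, at 97.6% of the broad, 96.3% of the intermediate and 82.9% of the narrow ones. It was the start at 67.9% of those marked in 1 to 3 libraries.

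Most of the covered length and of the strongest peaks lay at coding gene ends, while by number the order of positions turned on a few densely peaked stretches. By number 37.2% ± 2.00 of autosomal peaks touched an end window of a coding gene, 20.3% ± 0.644 lay inside genes and 42.5% ± 1.39 between them (SD, n = 4). Outside 81 bins of 1 Mb with 100 or more peaks on average the shares were 50.9% ± 2.60, 23.9% ± 1.05 and 25.1% ± 1.58, so that ends led. By covered length the shares were 59.9% ± 0.557, 17.0% ± 0.214 and 23.1% ± 0.344. Peaks at ends had a median percentile of 78.5 ± 1.35, inside genes of 42.2 ± 1.34 and between genes of 33.7 ± 2.56. Of the peaks in the highest decile of fold, 90.6% ± 0.766 lay at ends. Of the peaks inside genes, 17.4% ± 1.39 lay at another tabled start, and those had a median percentile of 73.9 ± 0.693, against 39.2 ± 0.779 for the rest. Starts were tabled for 81.7% of coding genes off chromosome 18 and for no gene on it. The rest can therefore include peaks at starts that were not tabled, and the share is a lower bound. Of the peaks between coding genes, 11.2% ± 0.147 overlapped a long noncoding RNA gene, 12.8% ± 0.253 a pseudogene and 74.7% ± 0.235 no annotated gene of the kinds examined. Outside the densely peaked bins, these were 22.2% ± 0.403, 8.70% ± 0.423 and 69.1% ± 0.393.

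A small part of the genome held a large share of the peaks. In 81 of 2364 bins of 1 Mb (3.43%) the lists had 100 or more peaks on average, a limit set after the data were seen, where the median bin had 10.75. These densely peaked stretches held 35.5% ± 0.804 of the autosomal peaks and 19.8% ± 0.364 of the covered length, and 24 of them lay on chromosome 7. Their peaks were shorter (median 311 ± 3.86 bp, against 557.5 ± 15.3 bp elsewhere) and ranked lower (median percentile 33.4 ± 2.41 against 65.9 ± 0.25). The number per bin followed the same order in every pair of libraries (Spearman correlation 0.96 to 0.97 over the bins).

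The densest stretches, named after their values were seen, lie over clusters of duplicated genes. A bin on chromosome 13 from 61000000 to 61999999, with the placental cathepsin genes Ctsj, Ctsq and Cts6, held 436, 465, 529 and 478 peaks. A bin on chromosome 7 from 18000000 to 18999999, with pregnancy-specific glycoprotein genes such as Psg18, held 423, 452, 467 and 457. A bin on chromosome 17 from 19000000 to 19999999, with vomeronasal receptor genes such as Vmn2r98, held 404, 403, 443 and 435. A bin on chromosome 12 from 115000000 to 115999999 held 386, 381, 398 and 406 peaks and no coding gene, and overlaps the immunoglobulin heavy chain locus. All 4 libraries had many peaks in each. Reads of 50 bp are placed with less certainty among similar copies, and the part of this in the peaks was not tested.

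Most sensory receptor genes that were marked in all 4 libraries lay inside these stretches, which were themselves chosen for their number of peaks. Over all coding genes 842 of 1292 (65.2%) were marked inside and 12519 of 19369 (64.6%) outside. Of 219 olfactory receptor genes there, 75 (34.2%) were marked in all 4 libraries, and of 881 elsewhere 7 (0.795%). Vomeronasal receptor genes were marked at 68 of 133 (51.1%) inside and 10 of 219 (4.57%) outside. Over both settings 82 of 1100 olfactory receptors were marked in all 4, 75 of them narrow, 232 in 1 to 3 libraries and 786 in none. The 2 most covered members were Olfr161 (1868, 1040, 2053 and 1242 bp) and the vomeronasal gene Vmn1r87 (1858, 2562, 2065 and 1641 bp). Both were intermediate in length, with percentiles of 61.0 and 63.1, below the 89.6 of their class. Of cytochrome P450 genes 21 of 27 (77.8%) were marked inside and 25 of 71 (35.2%) outside. Zinc finger genes of the Zfp series were marked on both sides, at 78 of 83 and 271 of 305. Keratin genes, another duplicated family, had 0 of 105 members in such a stretch and 6 marked in all 4 libraries.

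**Figure D5:**
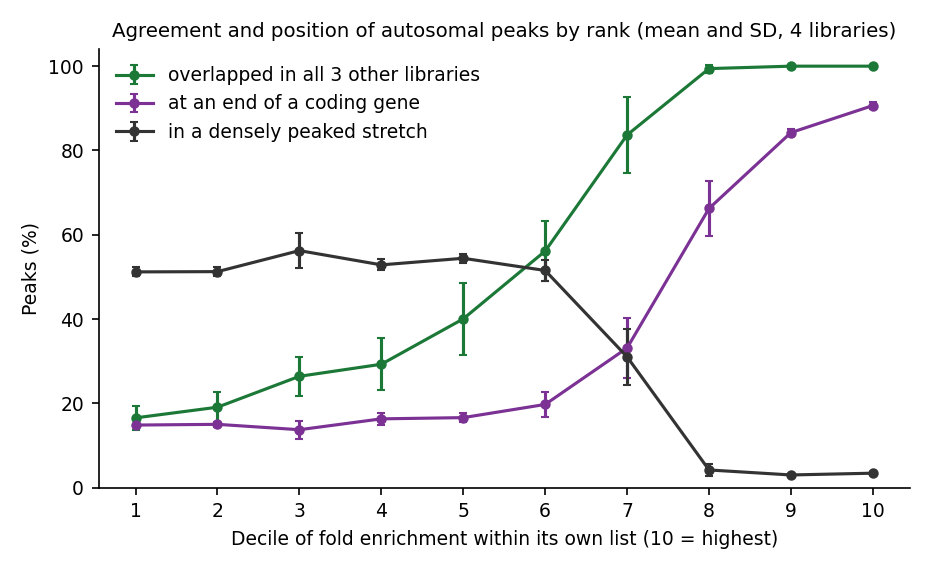
Share of autosomal peaks (y axis, %) that a peak overlapped in all 3 other libraries, that lay at an end of a coding gene, and that lay in a densely peaked stretch, by decile of fold enrichment within the own list (x axis, 10 highest, unequal in size because of ties). Points are means and bars the SD over 4 libraries. The share found in all libraries climbs from 16.6% to 99.99%, and the share in dense stretches drops between deciles 6 and 8.

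The 4 libraries agreed at strong peaks and parted at weak ones. Any pair shared 63.2% to 64.2% of the length covered in either (63.7% ± 0.437, SD over 6 pairs). The lists together formed 74391 regions, of which 25234 (33.9%) had a peak in all 4 libraries and 30689 (41.3%) in a single one. The regions in all 4 held 70.6% of the covered length. Of regions at gene ends 67.65% were found in all 4, of those inside genes 26.2% and of those between genes 19.7%. By fold, the share of a library's peaks that were overlapped in all 3 others was 16.6% ± 2.77 in the lowest decile, 56.1% ± 7.02 in the sixth and 83.7% ± 9.11 in the seventh. It was 99.4% ± 0.965 in the eighth and 99.99% ± 0.011 in the ninth and in the tenth. Over all peaks it was 82.5% ± 3.15 at gene ends, 50.0% ± 5.29 inside and 36.9% ± 2.03 between genes. An overlap of 1 bp was enough, and peaks of higher fold were also wider. Median width was 221 bp in the lowest decile and 1822 bp in the highest, so the rise by fold cannot be told apart from one by width. Without replicates 2 and 3, the other pair shared 63.2% of the length, and 64.2% without replicates 1 and 4, so the libraries did not pair up on the autosomes as they did on X and Y.

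In all 4 libraries the same class held for 17214 of 20661 promoters (83.3%), 5839 of them unmarked in all, and 0 were broad in one library and unmarked in another. By class the share varied widely. Of promoters intermediate in any library 9505 of 11542 (82.4%) were so in all 4, of broad ones 348 of 863 (40.3%) and of narrow ones 1522 of 4449 (34.2%). Covered length had a Spearman correlation of 0.93 to 0.95 between pairs of libraries over the 13361 marked promoters, and percentiles one of 0.84 to 0.93. The coefficient of variation of covered length over the 4 libraries had a median of 4.32% in broad, 7.84% in intermediate and 20.6% in narrow promoters. Of the 1461 promoters marked in 1 to 3 libraries, 640 had the mark in a single library, 299 of them in replicate 4. In the libraries that held it, the mark then had a median of 235.5 bp and a percentile of 29.0.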

How the data were processed

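H3K4me3 ChIP-seq peak lists of the 4 control libraries were described. The 2 input samples and the 4 transgenic lists were not used here. Build mm10 and the peak caller MACS2 are named in the submitters' processing notes, as are Bowtie2 2.0.2, SAMtools 1.3.1 and FastQC 0.11.5. The settings and the background library were not given in the sources used here. The authors deposited for each peak a whole-number score, a fold enrichment (a ratio), and a p-value and a q-value as −log10, in the layout that MACS2 writes, without header. The score was not used. The smallest deposited −log10 q-values were 1.32 to 1.42, and 85 to 91 peak numbers were missing from each list. Depth is unknown, as reads are not counted in the lists. Sample descriptions and list names use different letters for a group but the same group names, and groups were taken from the titles.

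Merging overlapping or touching peaks changed no count. Gene ends and biotypes came from RefSeq (GRCm38.p6, the coordinates of mm10), and starts, strands and promoter sequences from a RefSeq table of the same build, which covers no gene of chromosome 18. Starts were matched by gene ID for 16456 of 20661 coding genes. That table was used where the plan allowed for one. Marked means at least 1 bp of the window under a peak. Regions are the union of the 4 lists, supported by 1 bp of overlap. Analyses used Python 3.11.15, numpy 2.4.6, pandas 2.3.3 and scipy 1.17.1, tested on simulated peaks. No test between groups applied, and correlations are descriptions.

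The members and the 39 gene lists (24 by symbol, 15 by family) were chosen with earlier results of these data known. Named promoters were the 10 widest, the 5 with the highest percentile, the 5 narrow ones with the highest percentile, the 5 with the largest range, the most and least covered member of each list, and fixed genes such as Camk2a, Fos and Alb. Predicted gene models were skipped, and a few promoters that the rule names are not reported here. Others are said to be chosen after their values were seen. Alternatives were each library left out, a stricter q-value, equal numbers of peaks, wider merging, other windows, starts, limits, gene sets and overlaps, and, chosen after seeing the data, pairs of libraries left out, all annotated starts and the genome outside densely peaked stretches.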

Additional observations from a re-analysis of the deposited data

Results flagged for a closer look

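Data on the sex chromosomes, outside the autosomal description, stood out against the label of male sex. On X, replicates 1 to 4 had 1145, 13559, 13023 and 1207 peaks, and on Y they had 1024, 4, 7 and 1072.

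Some libraries stood apart from the other 3 by a gap that was large for their range. This happened in 2 of 16 summaries per library and 8 of 78 named promoters. Chance gives about 1 in 20 for unselected values. Some of the named promoters were chosen for a large range over the libraries, so their count cannot be set against that rate. Replicate 4 had the largest share of peaks between genes, 44.6% (41.6% to 42.0% in the others), and the lowest median percentile inside genes, 40.2. It also had the highest covered length at Dusp13, 552 bp, at Egr2, 1328 bp, and at Ank1, 2900 bp. Replicate 1 was low at Sfi1 with 700 bp and at Apoa2 with 1451 bp, and replicate 3 was high at Serpini1, a neuronal serpin gene, with 3578 bp. At the microglial genes a single library had a peak, replicate 2 at Cx3cr1 with 200 bp and replicate 3 at C1qa with 299 bp.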

How the results depend on the processing

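No paired analysis was possible because the 4 libraries form 1 group and no groups were compared. With single libraries left out, promoters marked in every remaining library numbered 13415 to 13493, broad ones 474 to 541 and narrow ones 2290 to 2412, and the median CG ratio of unmarked promoters was 0.179 to 0.184. Over all alternatives, 177 of 224 values counted as unchanged and 47 as moved. Counts were judged by a fixed ratio to the main count, and other values by the spread between libraries. At a −log10 q of at least 5, the shares of peaks at gene ends, inside and between genes were 46.9%, 18.9% and 34.3%, with median percentiles of 73.5, 39.8 and 29.3. Pairs of libraries then shared 68.7% of covered length, and the narrow CG ratio was 0.53. With all annotated genes the shares were 47.1%, 22.7% and 30.2% and the percentiles 73.4, 39.2 and 30.8. Outside the densely peaked stretches they were 50.9%, 23.9% and 25.1%, and 70.9, 34.5 and 29.1, with 72.3% shared by pairs and CG ratios of 0.55 (narrow) and 0.18 (unmarked). In these 3 settings more peaks lay at ends than between genes, the reverse of the main order. By summit position 21.4% lay inside genes, at percentile 46.0. Merging over 500 bp gave a broad CG ratio of 0.82 and 65.8% shared.

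Windows of 1 kb gave a narrow CG ratio of 0.55, and broad promoters were not run there because the window is shorter than their limit. Windows of 5 kb gave 2392 broad promoters and CG ratios of 0.78 (broad) and 0.46 (narrow). Broad from 2500 bp held 1729 promoters (CG ratio 0.84) and from 3500 bp 156 (0.76). Narrow under 500 bp held 548 (0.36) and under 1500 bp 5113 (0.65). The counts of both classes rest on these limits. Without replicates 2 and 3, 851 promoters were marked in some libraries only and the remaining pair shared 63.2%. Without replicates 1 and 4 these were 757 and 64.2%, with an unmarked CG ratio of 0.18. The best covered of all annotated starts could be run only on the 16456 of 20661 coding genes with a tabled start. It gave 1449 narrow promoters, a count over fewer genes than the main one, and a median summit distance of 277.5 bp. Of 468 values of named promoters 4 moved by more than the spread, at Snap25, Pou3f1, Mrps34 and Serpini1 with the stricter q-value. The lists hold no reads, so an unmarked promoter is one without a called peak at an unknown depth.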
